A study of Mus musculus with 20 samples.

Results

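The genes described are 10 that together make, package and recycle pulmonary surfactant in alveolar type 2 cells: Sftpa1, Sftpb, Sftpc and Sftpd, Abca3, Lamp3, Napsa, Slc34a2, Lpcat1 and Nkx2-1. They were picked by name, as established genes of this cell type. All 10 were found among the 54532 genes of the table, and all 10 passed the filter on low values that left 15106 genes to test. The study, whose title concerns asthma, sequenced RNA of whole mouse lung in 4 groups of 5 libraries each. The control group and the asthma model carry only those names in the labels. The SMD group received Shegan-Mahuang Decoction, a Chinese herbal formula, and the prednisone group received a synthetic glucocorticoid. All mice are labelled wild type. Each group is described as having held 15 mice after 7 days of acclimatisation. The labels and design text do not state the strain, age or sex, the way the model was induced, any dose or time, or whether the SMD and prednisone mice were put through the model too. Nor do they say that the samples of a group came from different mice, so the p-values reflect the spread between samples alone, which may be technical.

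Alveolar type 2 cells line the gas exchange surface of the lung, secrete surfactant and serve as the progenitors of the flat alveolar type 1 cells. Surfactant is a mixture of lipids and a few proteins that lowers surface tension. It is stored in lamellar bodies, released into the airspace, and taken up again by type 2 cells or broken down by alveolar macrophages. The hydrophobic proteins SP-B and SP-C spread the lipid film, while the collectins SP-A and SP-D bind microbes and allergens.

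Sftpa1 (ENSMUSG00000021789), which encodes SP-A, lies at chr14:41131782-41136452 on the plus strand of GRCm38, in the GENCODE vM21 annotation used for all positions given here. Sftpd (ENSMUSG00000021795), for SP-D, lies close by at chr14:41172214-41185149 on the minus strand. Sftpc (ENSMUSG00000022097), for SP-C, is on the same chromosome at chr14:70520949-70524081, minus strand, and Sftpb (ENSMUSG00000056370), for SP-B, is at chr6:72304610-72314371, plus strand. Abca3 (ENSMUSG00000024130), the transporter that loads phospholipid into lamellar bodies, is at chr17:24351950-24410201, plus strand. Lamp3 (ENSMUSG00000041247), a lamellar body membrane protein, is at chr16:19653378-19706375, minus strand. Napsa (ENSMUSG00000002204), an aspartic protease that helps to process the SP-B and SP-C precursors, is at chr7:44572380-44586862, plus strand. Slc34a2 (ENSMUSG00000029188), a sodium-dependent phosphate carrier of the apical membrane, is at chr5:53038081-53071664, plus strand. Lpcat1 (ENSMUSG00000021608), an acyltransferase that remakes saturated phosphatidylcholine, is at chr13:73467197-73516422, plus strand. Nkx2-1 (ENSMUSG00000001496), the homeodomain transcription factor of lung and thyroid epithelium that switches on surfactant genes, is at chr12:56531958-56536908, minus strand. Abca3, Napsa, Slc34a2 and Nkx2-1 each overlap an annotated transcript of the opposite strand. The highest FPKM of such a transcript was 2.27 at Abca3, 0.208 at Napsa, 2.43 at Slc34a2 and 4.96 at Nkx2-1. The labels do not state whether fragments were counted by strand, so reads from each pair may not have been told apart.

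The promoters of Sftpb, Sftpa1 and Lamp3 are shown because, of the windows examined, only these held a core motif of NKX2-1 or of FOXA. Both are factors known to act on surfactant promoters. Whether these motifs bear on how the 10 genes varied between libraries was not tested. RefSeq windows of GRCm38.p6, from 250 bases before the start site to 50 after it, were matched by symbol for 7 of the 10 genes: Sftpa1, Sftpb, Abca3, Lamp3, Slc34a2, Lpcat1 and Nkx2-1. Capitals mark the NKX2-1 core CTCAAG and the FOXA core TGTTTAC or TGTTTGC, searched on both strands.
Sftpb: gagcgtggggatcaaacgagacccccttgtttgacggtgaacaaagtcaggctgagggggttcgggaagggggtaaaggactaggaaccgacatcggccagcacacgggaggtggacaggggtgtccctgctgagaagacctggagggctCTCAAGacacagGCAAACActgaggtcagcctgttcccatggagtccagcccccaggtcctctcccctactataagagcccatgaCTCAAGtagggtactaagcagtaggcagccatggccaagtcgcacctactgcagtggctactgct
Sftpa1: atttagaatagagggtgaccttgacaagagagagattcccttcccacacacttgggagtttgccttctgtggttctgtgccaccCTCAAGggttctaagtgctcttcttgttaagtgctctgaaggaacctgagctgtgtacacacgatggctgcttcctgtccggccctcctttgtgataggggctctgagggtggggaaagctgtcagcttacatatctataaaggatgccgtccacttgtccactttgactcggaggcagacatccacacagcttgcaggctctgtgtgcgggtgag
Lamp3: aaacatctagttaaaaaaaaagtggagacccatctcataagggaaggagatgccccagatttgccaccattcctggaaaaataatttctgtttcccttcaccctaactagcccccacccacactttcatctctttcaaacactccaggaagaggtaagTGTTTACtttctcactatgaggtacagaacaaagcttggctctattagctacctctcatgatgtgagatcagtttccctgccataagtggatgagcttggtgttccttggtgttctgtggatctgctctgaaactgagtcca
The Sftpb window (chr6:72304360-72304659, plus strand) held CTCAAG at bases -100 to -95 and -15 to -10, counted from the start site with -1 just before it, and the FOXA core on the opposite strand at -88 to -82. The Sftpa1 window (chr14:41131538-41131837, plus strand) held CTCAAG at -166 to -161. The Lamp3 window (chr16:19706316-19706615, minus strand) held TGTTTAC at -92 to -86. The NKX2-1 core was thus found in 2 of 7 windows, against 15.9% of all 32851 windows in the table, and the FOXA core in 2 of 7, against 8.48%. The half-site TGTTCT of the glucocorticoid receptor was found in 1 of 7 windows, that of Lamp3, with 2 matches, against 6233 of all 32851 windows. These are matches of letters in a short window and not measured binding, and none of these motifs overlapped another.

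Sftpc was by far the most abundant of the 10. Its mean level over the 20 libraries was 14018 FPKM (fragments scaled to gene length and to the mapped fragments of the library), and it ranked between 2 and 6 among all genes of a library. Sftpb followed with 819 FPKM and Sftpa1 with 689 FPKM, and Sftpb was the higher of the pair in 20 of 20 libraries. The middle of the order held Sftpd at 189, Slc34a2 at 184, Napsa at 132 and Lamp3 at 101 FPKM. Sftpd and Slc34a2 could not be ordered, since Sftpd was higher in 11 of 20 libraries. The lowest were Lpcat1 at 58.7, Nkx2-1 at 56.2 and Abca3 at 28.2 FPKM. Lpcat1 and Nkx2-1 could not be ordered either, each being the higher in 10 libraries, whereas every other neighbouring pair kept its order in all 20. The 4 surfactant proteins together took 2.85% to 4.65% of the FPKM sum of a library, and each of the 10 genes had an FPKM of 1 or more in 20 of 20 libraries.

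**Figure D1:**
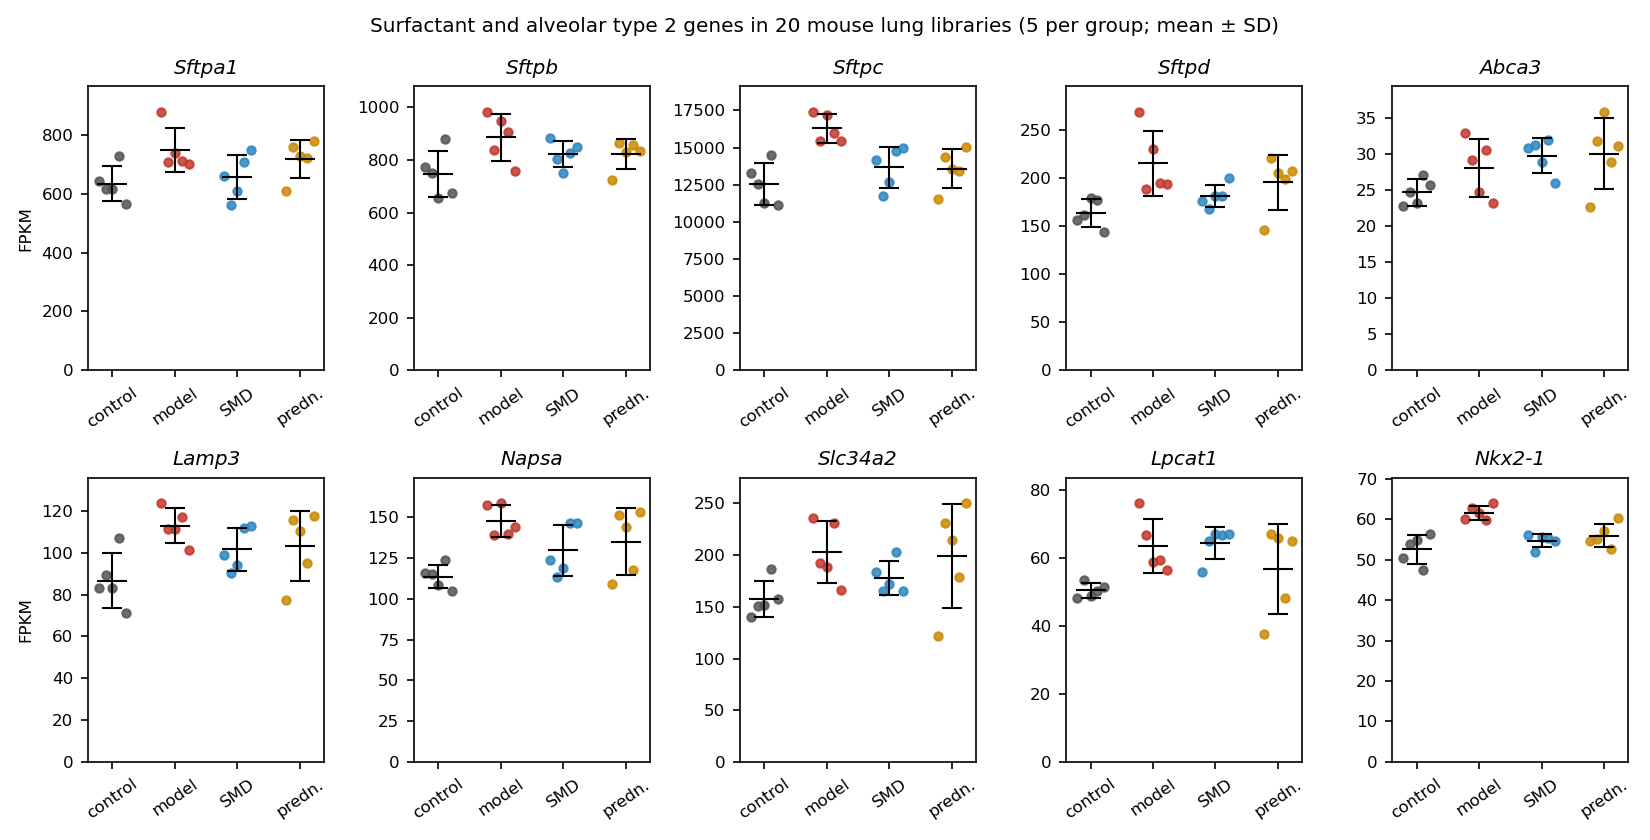
FPKM of each of the 10 genes (vertical axes, starting at 0) in the 5 libraries of the control, model, SMD and prednisone groups (points); horizontal bars and whiskers give mean ± SD. All 5 model libraries lie above all 5 control libraries for Sftpc, Sftpd, Napsa, Lpcat1 and Nkx2-1, and the prednisone group has the widest spread for Slc34a2 and Lpcat1.

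In the asthma model, all 10 genes had a higher mean than in control lungs, by 0.17 to 0.39 on the log2 scale with a median of 0.34, but none passed the test across all genes. The 4 surfactant proteins, the lamellar body genes, the protease, the phosphate carrier, the acyltransferase and the transcription factor thus all had means on the same side of control. The median of all 15106 genes tested was 0.055. With limma, 0 of 10 were called at an adjusted p under 0.05, where 0.192% of all genes were called. At an unadjusted p under 0.05, 9 of 10 were higher in the model, against 13.0% of all genes, and for 5 of 10 the libraries of the groups did not overlap, against 2.84% of all genes. This was a whole-tissue measurement, in which fewer or more type 2 cells and less or more RNA per cell cannot be told apart.

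Sftpc encodes the surfactant protein made almost only by type 2 cells. In control lungs its FPKM was 13293, 12562, 11233, 14496 and 11119, and in model lungs 17399, 15427, 17218, 15965 and 15447. Every model library lay above every control library. The group means were 12540 ± 1425 and 16291 ± 956 FPKM (SD, n = 5), a log2 fold change of 0.38 ± 0.106 (SE; limma adjusted p = 0.11). In the SMD group the values were 14138, 11725, 12683, 14788 and 14959, and in the prednisone group 11511, 14371, 13525, 13451 and 15060. All 10 of these treated libraries lay below the lowest model library, and 3 of them lay above the highest control library. The differences from the model were -0.26 ± 0.106 for SMD (adjusted p = 0.193) and -0.27 ± 0.106 for prednisone (adjusted p = 0.132), and neither passed the limma test.

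Nkx2-1, the regulator of this gene set, had the least spread between libraries. Control lungs had 50.34, 53.98, 54.89, 47.52 and 56.27 FPKM, and model lungs 59.99, 62.75, 61.51, 59.76 and 63.97 FPKM. The 2 groups did not overlap, and the model libraries spanned a narrow band. The means were 52.6 ± 3.59 and 61.6 ± 1.8 FPKM (SD, n = 5), and the log2 fold change of 0.23 ± 0.049 had the lowest adjusted p of the 10 genes in limma, 0.058. Without model library 4 that adjusted p was 0.0455. SMD lungs had 56.04, 51.89, 55.58, 55.36 and 54.55 FPKM, all below the model range, and prednisone lungs 54.64, 55.19, 57.13, 52.73 and 60.46 FPKM, of which 1 reached into it. The difference from the model was -0.17 ± 0.049 under SMD (adjusted p = 0.0706; 0.0456 without control library 4) and -0.14 ± 0.049 under prednisone (adjusted p = 0.0938), by limma. Nkx2-1 is also a thyroid gene. Of 7 thyroid markers, 1 passed the filter, and their summed level was 2.31 to 4.3 FPKM in every library. Their part in the Nkx2-1 values was not tested.

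The collectin gene Sftpd stood at 156.6, 161.3, 179, 176.8 and 143.4 FPKM in control lungs and at 268.4, 188.6, 229.5, 194.7 and 193.8 FPKM in model lungs. The groups did not overlap, and model library 1 was the highest of all 20. The log2 fold change was 0.39 ± 0.107 (limma adjusted p = 0.111). SMD lungs had 167.6 to 199.4 FPKM with a median of 181, and prednisone lungs 145.3 to 220.1 FPKM with a median of 205.1. Both treated groups overlapped the control and the model groups. Sftpa1, the other collectin gene, had means of 634 ± 60.4, 748 ± 74.1, 657 ± 75.3 and 719 ± 64.9 FPKM in the control, model, SMD and prednisone groups (SD, n = 5). Its model libraries lay between 701.5 and 877.8 FPKM and overlapped the control libraries, of which the highest had 729.5. The difference between them was 0.24 ± 0.090 (limma adjusted p = 0.217). Sftpb, whose protein is indispensable for breathing after birth, had means of 746 ± 87.9, 886 ± 89.8, 823 ± 49.4 and 822 ± 56.2 FPKM in the same order. Control libraries reached 878 FPKM and model libraries went down to 758.7, so these groups overlapped too, with a log2 fold change of 0.25 ± 0.084 (limma adjusted p = 0.174).

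Napsa, the protease of SP-B and SP-C processing, was at 115.9, 115.4, 108.3, 123.5 and 104.9 FPKM in control lungs and at 157.3, 138.9, 158.5, 139.7 and 144 FPKM in model lungs. The 2 groups were separated by a gap. The log2 fold change of 0.38 ± 0.095 had a limma adjusted p of 0.0833. SMD libraries ran from 113.1 to 146.6 FPKM and prednisone libraries from 108.8 to 153.2 FPKM. Both bridged the gap between control and model. Lamp3 had means of 86.7 ± 13.1, 113 ± 8.29, 102 ± 10.1 and 103 ± 16.9 FPKM in the control, model, SMD and prednisone groups (SD, n = 5). Its log2 fold change in the model was 0.39 ± 0.111 (limma adjusted p = 0.12), with overlap because control library 4 reached 107 FPKM. Abca3 differed least, with 22.76 to 27.16 FPKM in control lungs and 23.22 to 32.96 FPKM in model lungs, a difference of 0.17 ± 0.106 (limma adjusted p = 0.445). Abca3 and Lpcat1 were the genes whose SMD mean was not below the model mean.

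Lpcat1, which supplies saturated phosphatidylcholine, was tightly grouped in control lungs at 48.19, 53.52, 48.67, 50.21 and 51.3 FPKM. Model lungs had 75.96, 66.68, 58.66, 59.31 and 56.52 FPKM, and SMD lungs 55.8, 64.86, 66.96, 66.71 and 66.99 FPKM. Neither group overlapped the control libraries. The log2 fold change was 0.32 ± 0.125 in the model (limma adjusted p = 0.229) and 0.34 ± 0.125 under SMD (limma adjusted p = 0.189), and the latter had an adjusted p of 0.032 when the control and SMD libraries were fitted alone. Prednisone lungs split widely, at 37.54, 66.85, 65.9, 48.25 and 64.88 FPKM, with both the lowest value of all 20 libraries and values in the model range. Slc34a2 showed the same breadth under prednisone, with 122.1, 231.1, 214.8, 178.9 and 250.1 FPKM. These included the lowest and the highest values of the gene in the series. Its other libraries lay at 140.5 to 187 FPKM in control, 166.4 to 235.9 in model and 165 to 203.5 in SMD lungs, and the model differed from control by 0.36 ± 0.149 (limma adjusted p = 0.252).

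**Figure D2:**
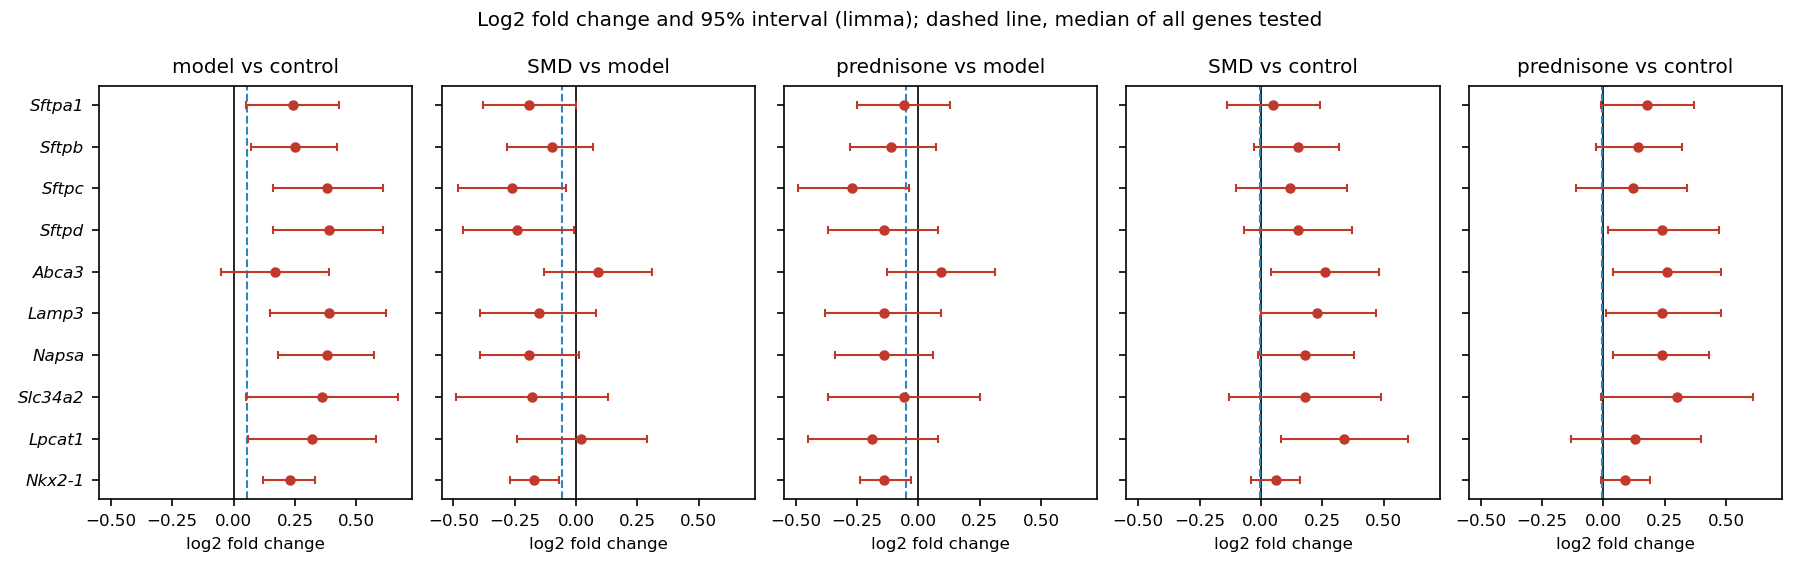
Log2 fold change (horizontal axes, on the log2(FPKM + 1) scale) of each of the 10 genes with its 95% interval from limma in 5 comparisons; the dashed line is the median of all genes tested. In the model against control all 10 points lie at 0.17 or above, against the model most treated points lie left of 0, and no point was called after adjustment over all genes.

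The SMD group was set against the model to ask how lungs differed with the decoction. The means of 8 of 10 genes were lower under SMD and those of Abca3 and Lpcat1 were not, with a median log2 fold change of -0.18, against -0.059 over all genes. The values ran from -0.26 for Sftpc to 0.09 for Abca3. By limma 0 of 10 were called, where 2.15% of all genes were. At an unadjusted p under 0.05, 3 of 10 were lower (Sftpc, Sftpd and Nkx2-1), against 15.7% of all genes, and for 2 of 10 (Sftpc and Nkx2-1) the groups did not overlap, against 4.03% of all genes. The 95% intervals of the 10 genes together spanned -0.49 to 0.31. The count of 3 at an unadjusted p became 0 under median-of-ratios, quantile and equal-sum scaling, where 8.23%, 6.96% and 8.20% of all genes were lower. It was 1 without model library 1 or 3 or SMD library 2 or 3, against 12.8% to 14.3% of all genes. Without SMD library 5 or prednisone library 1 it was 5, against 14.1% and 15.7%. The count of 2 without overlap became 0, 0 and 1 under the 3 scalings, against 1.89%, 1.49% and 2.28% of all genes.

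Prednisone was the study's drug comparator. Against the model, 9 of 10 means were lower, with a median log2 fold change of -0.14, against -0.052 over all genes, and Abca3 had a difference of 0.09. No gene of the 10 was called by limma, where 8.04% of all genes were. Sftpc and Nkx2-1 were lower at an unadjusted p under 0.05, 2 of 10 against 18.5% of all genes. That count became 0 under median-of-ratios, quantile and equal-sum scaling, where 12.9%, 10.5% and 4.80% of all genes were lower. It was 1 without prednisone library 1 or without a filter on low values, against 16.3% and 8.70% of all genes. With quantile scaling Abca3 was instead higher at an unadjusted p under 0.05. Sftpc was the 1 gene of 10 whose groups did not overlap, against 6.68% of all genes, and it overlapped under each of 3 other scalings. With quantile scaling the median of the 10 genes was 0.00 and with scaling to equal sums -0.03. Prednisone library 1 was among the 5 lowest of all 20 libraries for 9 of the 10 genes, and without it Slc34a2 stood 0.11 above the model instead of -0.06.

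Set directly against each other, the SMD and prednisone groups had means of the 10 genes that lay close together. The median log2 fold change of SMD over prednisone was -0.02, with values from -0.13 to 0.21, and the 95% intervals of the genes spanned -0.44 to 0.47. By limma 0 of 10 were called, where 4.59% of all genes were, and 0 of 10 were higher or lower at an unadjusted p under 0.05, where 9.78% of all genes were lower. Without prednisone library 1, 3 of 10 were lower at an unadjusted p under 0.05, against 10.4% of all genes. For 0 of 10 did the groups separate with SMD lower, against 3.34% of all genes.

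Against control lungs, both treated groups had higher means of all 10 genes, and these comparisons share their control libraries with each other and with the model comparison. Under SMD the median log2 fold change was 0.16, against -0.004 over all genes. By limma 0 of 10 were called, where 1.05% of all genes were. At an unadjusted p under 0.05, 2 of 10 (Lpcat1 at 0.34 and Abca3 at 0.26) were higher, against 6.48% of all genes, and Lpcat1 was the 1 of 10 without overlap, against 2.09%. The count of 2 became 4, 5 and 3 under median-of-ratios, quantile and equal-sum scaling, against 7.43%, 8.51% and 7.76% of all genes. It was 4 when the control and SMD libraries were fitted alone, against 7.18%. Without control library 1 or 3 or SMD library 4 it was 1, against 5.33%, 4.98% and 5.12% of all genes. Without SMD library 2 or 3 or prednisone library 1 it was 4, against 6.08%, 6.24% and 6.85%. Without control library 4 it was 5, against 5.72%. Without control library 4, 4 genes were free of overlap, against 2.74% of all genes. Under prednisone the median was 0.21. By limma 0 of 10 were called, where 3.57% of all genes were. Here 4 of 10 (Abca3, Sftpd, Lamp3 and Napsa) were higher at an unadjusted p under 0.05, against 10.2% of all genes, and 0 of 10 were free of overlap, against 2.44%. The count of 4 became 5, 8 and 9 under median-of-ratios, quantile and equal-sum scaling, against 10.1%, 10.6% and 19.5% of all genes. With the replicate number as a block it was 2, against 9.90%. It was 0 without prednisone library 2 or 3 (7.60% and 8.21% of all genes) and 1 without control library 1 or prednisone library 5 (7.94% and 8.35%). It was 2 without control library 5 (11.1%), 7 without control library 4 (10.4%) and 8 without prednisone library 1 (12.2%). Without prednisone library 1, 3 genes were called by limma: Abca3 at 0.36 (adjusted p = 0.0381), Sftpd at 0.35 (adjusted p = 0.0403) and Slc34a2 at 0.47 (adjusted p = 0.0259). Among all 15106 genes, 229 to 662 were called in this comparison when a single library was left out.

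**Figure D3:**
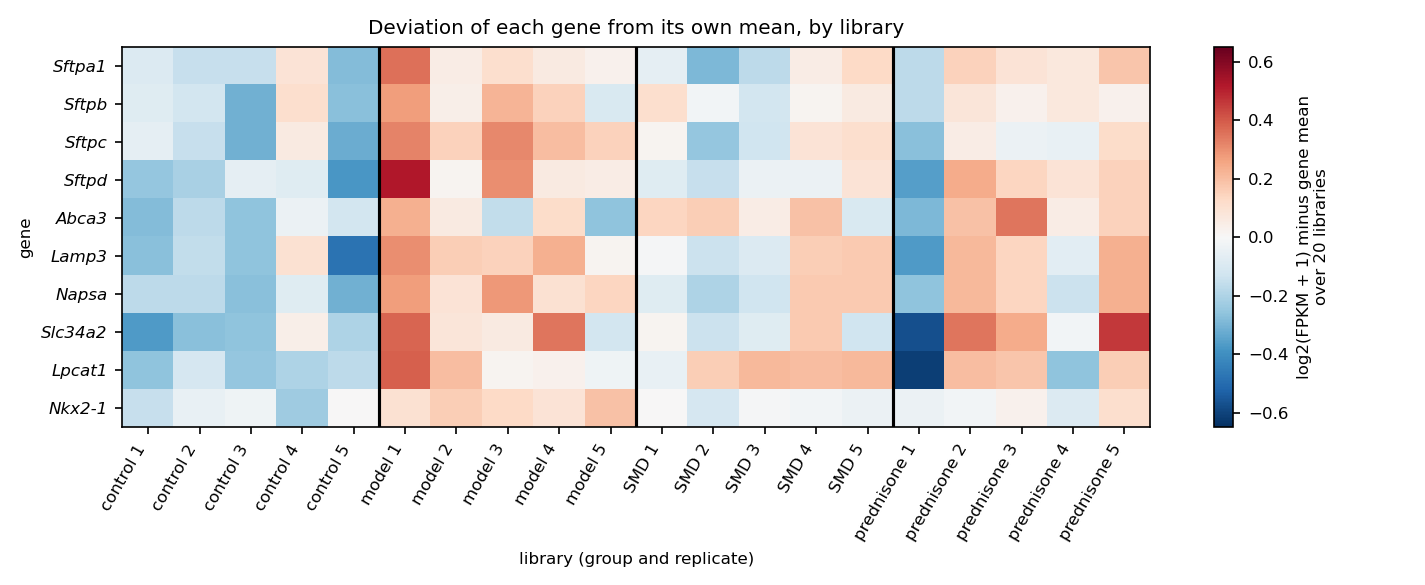
Log2(FPKM + 1) of each of the 10 genes (rows) minus its own mean over the 20 libraries (columns, grouped as control, model, SMD and prednisone); red is above the mean and blue below. Whole columns share a colour: model library 1 is red for all 10 genes, and prednisone library 1 and most control libraries are blue.

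The 10 genes varied together from library to library, and 75% of their variation over the 20 libraries lay along 1 shared axis. Model library 1 averaged 0.31 above the gene means on the log2 scale, held the highest of 20 values for 6 genes and was among the 5 highest for all 10. Prednisone library 1 averaged -0.31, with the lowest of 20 values for 3 genes. Control library 5 had the lowest value for 4 genes, with an average of -0.25, and control library 4 was the highest of the controls, at -0.02. The share of a gene's variation that lay between the 4 groups was 64.9% for Nkx2-1 and 55.6% for Sftpc, and it was lowest for Slc34a2 at 27.2%. Without control library 4, the groups of model and control did not overlap for 8 of 10 genes instead of 5, and for 4.97% of all genes instead of 2.84%. The control libraries other than library 4 averaged between -0.25 and -0.16. Control library 1 stood apart in its RNA composition, with 7.21% of its FPKM sum in the non-coding 7SL and 7SK RNAs against at most 0.844% elsewhere. After median-of-ratios scaling the groups of model and control were apart for 3 of the 10 genes (1.58% of all genes), after quantile scaling for 1 (1.48%) and after scaling to equal sums for 2 (2.10%), while the median difference stayed at 0.28, 0.30 and 0.37.

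Among the surfactant genes, the ratio of Sftpc to Sftpb FPKM was 16.5 to 17.2 in control lungs and 17.6 to 20.4 in model lungs, without overlap. Under SMD it was 14.6 to 17.9 and under prednisone 15.7 to 18, both spanning the control range, and the means were 16.8 in control, 18.5 in model, 16.6 in SMD and 16.5 in prednisone lungs. The ratio of Sftpc to Abca3 was 508 ± 56.4 in control, 588 ± 84.4 in model, 462 ± 72 in SMD and 457 ± 49.9 in prednisone lungs (SD, n = 5), and its control and model libraries overlapped. These ratios were looked at after the levels were known and were not tested.

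The genes whose profile over the 20 libraries was most like the mean profile of the 10 were looked for among 12744 protein-coding genes, by the root mean square difference of standardised values, for which the median gene had 1.27. The closest was Dram1, at 0.26, a lysosomal protein that acts in autophagy, followed by Mlc1, Anpep and Lyz2 at 0.41, Il33 at 0.43, Lrp2 at 0.47, Chil1 at 0.48 and Ankrd10 at 0.51. Lyz2 encodes a lysozyme made by mouse type 2 cells and by macrophages, Anpep a cell surface aminopeptidase, Il33 an epithelial alarmin cytokine and Chil1 a chitinase-like protein. The 10 genes themselves had 0.28 for Lamp3 and up to 0.96 for Nkx2-1. Dram1 had 61.2 ± 5.29 FPKM in control and 78.9 ± 8.04 in model lungs (SD, n = 5; limma log2 fold change 0.36, adjusted p = 0.0826). Il33 had 15.6 ± 2.26 and 22.5 ± 1.23 FPKM (limma log2 fold change 0.51, adjusted p = 0.0826). Chil1 had 179.6 ± 16.4 and 298.9 ± 85.7 FPKM (limma log2 fold change 0.69, adjusted p = 0.0948). None of these 3 passed the test. Their likeness to the 10 genes was measured over the same libraries, so their differences between model and control follow from how they were picked. Dram1, Il33 and Chil1 are also in the list of other type 2 genes described next.

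A list of 20 other genes of alveolar type 2 cells, of which 19 were tested, gave a similar picture in the model and 1 called gene in the SMD group. In the model against control 0 of 19 were called by limma, and the median was 0.29. At an unadjusted p under 0.05, 13 were higher, against 13.0% of all genes, and 1 lower. The groups did not overlap, with the model higher, for 6 of them, against 2.84% of all genes. Under SMD against control, 7 of 19 were higher at an unadjusted p under 0.05, against 6.48% of all genes, and 1 lower. The libraries did not overlap, with SMD higher, for 6 of 19, against 2.09% of all genes, and with SMD lower for 1. Cxcl15, a lung-specific chemokine that attracts neutrophils in mice, was the only gene of the list that was called. It had 290.7 to 370.5 FPKM in SMD lungs, 192.4 to 224.3 in control lungs, 244.2 to 290.7 in model lungs and 164.2 to 252.4 in prednisone lungs. The SMD libraries were thus above all control and all prednisone libraries, and above all model libraries by less than the digits shown. Cxcl15 rose from 208 ± 11.9 FPKM in control to 327 ± 38.8 in SMD lungs (SD, n = 5), by 0.64 ± 0.101 (limma adjusted p = 0.00683), and was 0.58 ± 0.101 above prednisone (limma adjusted p = 0.00325). Both calls held under all 27 alternative analyses. The difference from the model was 0.27 ± 0.101 and did not pass the test (limma adjusted p = 0.145).

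Of 18 genes of surfactant lipid synthesis 17 were tested, and 0 were called in the model against control or in either treated group against the model. Their median log2 fold change was 0.07 in the model, -0.28 under SMD and -0.19 under prednisone, the last 2 against the model. At an unadjusted p under 0.05, 3 of 17 were higher in the model, against 13.0% of all genes. Under SMD 4 were lower, against 15.7%. Under prednisone 5 were lower, against 18.5%, and 2 higher. Under prednisone against control the median of the list was -0.13, with 10 of 17 genes lower and 1 called, where 3.57% of all genes were called. That gene, Abcg1, a sterol exporter, went against the list and rose under prednisone against control by 0.36 ± 0.085 (limma adjusted p = 0.0265), from 13 ± 1.06 to 17.1 ± 2.34 FPKM (SD, n = 5), a call that held in 19 of the 27 alternatives. It was 0.34 lower under SMD than under prednisone (log2 fold change -0.34, limma adjusted p = 0.0276), in 18 of the 27. Of 12 genes of surfactant uptake and turnover 11 were tested, with 0 called by limma in the model. At an unadjusted p under 0.05, 3 were higher there, against 13.0% of all genes, and 2 lower. Abca1, another sterol exporter, rose under prednisone against the model by 0.34 (limma adjusted p = 0.0443), in 10 of the 27 alternatives, and was lower under SMD than under prednisone by -0.61 on the log2 scale (limma adjusted p = 0.00211), in all 27. Csf2rb, the signalling chain of the GM-CSF receptor by which alveolar macrophages clear surfactant, rose under prednisone against control by 0.91 ± 0.245 (limma adjusted p = 0.0453), in 11 of the 27. Cd36, a fatty acid carrier and scavenger receptor, fell by 0.48 (SE 0.113; limma adjusted p = 0.0268) in the same comparison, in 20 of the 27. None of the 12 tested transcription factors of a list of 14 that act on surfactant genes, among them Foxa2, Gata6 and the glucocorticoid receptor gene Nr3c1, was called by limma in any of the 6 comparisons. At an unadjusted p under 0.05, 1 of 12 was higher in the model than in control, against 13.0% of all genes. Against the model 1 was lower under SMD and 2 under prednisone, where 15.7% and 18.5% of all genes were. Against control 1 was higher under SMD and 1 under prednisone, where 6.48% and 10.2% were. In SMD against prednisone 1 was higher, and the share of all genes in that direction is not given here.

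**Figure D4:**
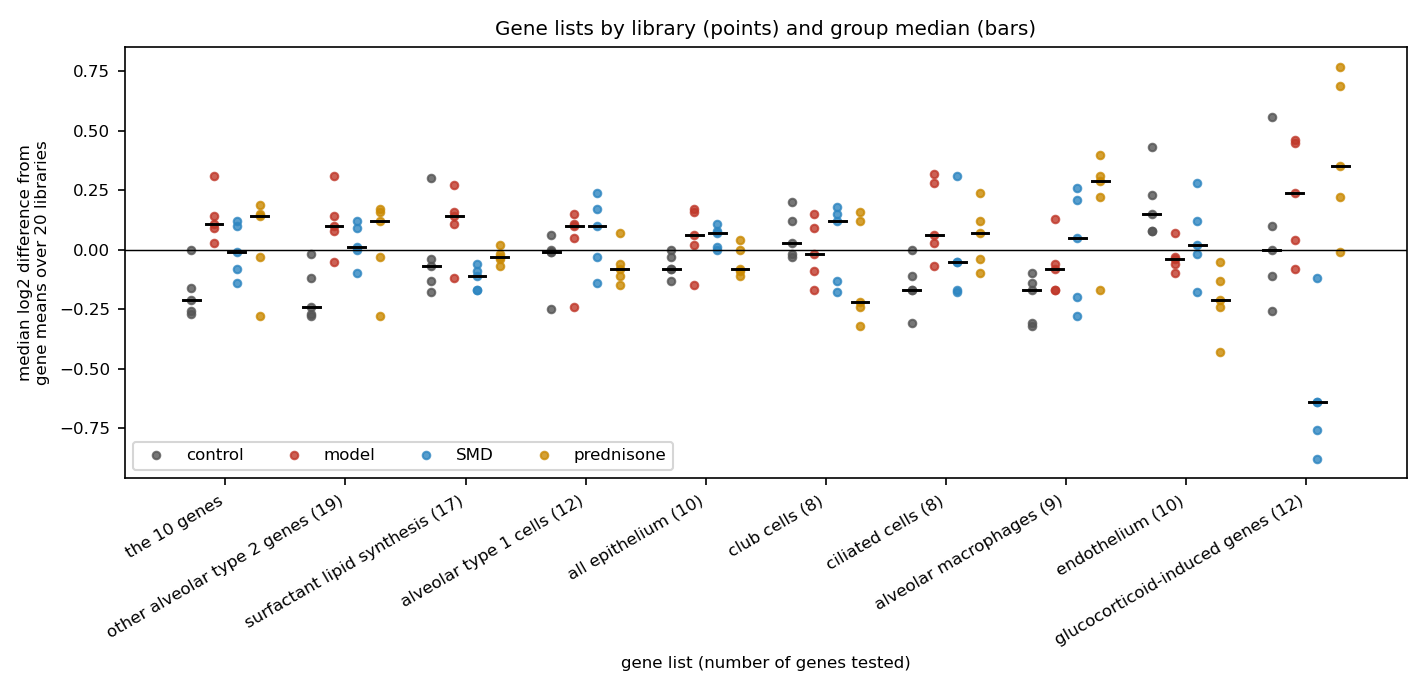
Median log2 difference from the gene means over the 20 libraries (vertical axis) for the 10 genes and for 9 other gene lists, with 1 point per library and a bar at the median of each group of 5. The 10 genes and the other type 2 genes have their lowest group median in control lungs, endothelial genes have their highest in control and their lowest under prednisone, and glucocorticoid-induced genes have their lowest in the SMD libraries, which go down to -0.88.

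Type 1 cells, the progeny of type 2 cells, had 12 genes on their list, with 0 called by limma in the model and a median of 0.08. At an unadjusted p under 0.05, 3 genes of these cells were higher, against 13.0% of all genes, and 1 lower. Aqp5, their water channel, fell under prednisone against the model by 0.40 (SE 0.097; limma adjusted p = 0.0181), from 73.8 ± 10.9 to 55.4 ± 5.22 FPKM (SD, n = 5), in 23 of the 27 alternatives. It stood at 81.3 ± 5.12 FPKM in SMD lungs, 0.55 ± 0.097 above prednisone (limma adjusted p = 0.00353), in all 27. Akap5, a kinase anchoring protein, was 0.51 higher under SMD than under prednisone (limma adjusted p = 0.00936), in 26 of the 27. Of 12 genes of the transitional state between the 2 cell types, Hbegf, a ligand of the EGF receptor, rose under SMD. It rose by 0.48 ± 0.120 against the model (limma adjusted p = 0.0411), by 0.61 ± 0.120 against control (limma adjusted p = 0.0237) and by 0.74 ± 0.120 against prednisone (limma adjusted p = 0.00194), in 15, 21 and 27 of the 27 alternatives. Krt19, a simple epithelial keratin, was higher under SMD than under prednisone by 0.43 and Cdkn1a, a cell cycle inhibitor, lower by -1.46 on the log2 scale (limma adjusted p = 0.00405 and 0.00265), each in all 27.

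The medians of marker lists of other cells also differed between model and control, and their part in the values of the 10 genes was not tested. All 8 ciliated cell genes had higher means in the model, with a median of 0.33 and 0 called by limma. At an unadjusted p under 0.05, 6 of 8 were higher, against 13.0% of all genes. Their summed level was 324 to 394 FPKM in control and 414 to 509 FPKM in model lungs. All 10 endothelial genes had lower means in the model, with a median of -0.22 and a summed level of 928 to 1067 against 1026 to 1251 FPKM, with 0 called by limma and an unadjusted p under 0.05 for 6. The 10 genes shared by all epithelia had a median of 0.11, and the 8 club cell genes one of -0.08, with 0 called by limma in the model and 5 and 0 higher at an unadjusted p under 0.05. No marker was listed at 0 in all 20 libraries. Genes of fat (median -0.61), of heart muscle (-0.44) and of the mitochondrial genome (-0.21) were also lower on median in the model than in control. Of these, 0 were called by limma, and 1, 1 and 7 had an unadjusted p under 0.05. The share of all genes lower in the model at an unadjusted p under 0.05 is not given here. The counts of lower endothelial, fat, heart muscle and mitochondrial genes were thus not set against all genes. Among immune cells, the median was 0.32 for mature dendritic cell genes, 0.23 for neutrophil genes, 0.11 for alveolar macrophage genes and -0.09 for lymphocyte genes. Ccl17, a dendritic cell chemokine, rose in the model by 1.15 ± 0.233 (limma adjusted p = 0.0489), in 6 of the 27 alternatives. Under prednisone against control, 6 of 10 endothelial genes fell and 4 of 9 tested alveolar macrophage genes rose by limma. Of all genes, 3.57% were called in that comparison, in either direction. Ednrb fell by 0.53 (SE 0.092, limma adjusted p = 0.00452) and Plet1 rose by 0.47 ± 0.102 (limma adjusted p = 0.0157), both in all 27 alternatives.

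Because prednisone acts through the glucocorticoid receptor, which also acts on surfactant genes, 12 glucocorticoid-induced genes were set beside the 10. Against the model 0 of 12 were called by limma under prednisone, 0 had an unadjusted p under 0.05, and all 12 had higher means, with a median of 0.15. Against control all 12 also had higher means under prednisone, with a median of 0.37. There 5 were higher at an unadjusted p under 0.05, against 10.2% of all genes. Sgk1 was the 1 gene called, at 0.40 (limma adjusted p = 0.0483), in 9 of the 27 alternatives, where 3.57% of all genes were called. By limma, under SMD 8 of 12 fell against the model, 11 of 12 against prednisone and 6 of 12 against control. Of all genes, 2.15%, 4.59% and 1.05% were called in these comparisons, in either direction. Zbtb16, a zinc finger gene strongly induced by the receptor, had 15.8 ± 3.97 FPKM in control, 13.8 ± 8.44 in model, 1.2 ± 0.359 in SMD and 18.1 ± 4.84 in prednisone lungs (SD, n = 5). It fell under SMD against the model by 2.49 on the log2 scale (SE 0.365; limma adjusted p = 0.00343), in all 27 alternatives. Fkbp5, a co-chaperone of the receptor, fell by 2.19 (SE 0.371; limma adjusted p = 0.00651) and Klf15 by 1.28 (SE 0.239; limma adjusted p = 0.0134) in the same comparison, both in all 27. The counts were less stable than these genes, with 3 to 10 of 12 that fell against the model, 9 to 11 against prednisone and 1 to 7 against control over the 27. The median difference of the 10 surfactant and type 2 genes between SMD and prednisone was the -0.02 given above. Whether the 10 genes and the glucocorticoid-induced genes were linked was not tested.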

How the data were processed

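RNA from whole mouse lung was measured in 20 libraries, grouped by their labels. TRIzol extraction, a NEBNext Ultra library kit and paired reads from a NovaSeq instrument are given per the labels' protocols. The authors deposited FPKM values, and GRCm38, HISAT2, fastp, featureCounts and DESeq2 are named per the submitters' processing notes. Neither versions nor the program and strand setting behind the FPKM values were given in the sources used here. Depth is unknown, because at best 13% to 16.9% of the low values of single-exon genes in a library lay within 0.05 of a whole number of reads, against 10% by even spread. FPKM sums ran from 377639 to 522361.

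Genes that reached an FPKM of 1 in 5 or more libraries were tested on log2(FPKM + 1) with limma 3.58.1 in R 4.3.3, in 1 fit of 4 group means over all 20 libraries with an intensity trend (16 residual degrees of freedom, 19.1 after moderation). The pseudocount of 1 understates changes of low genes. All tests were two-sided, with Benjamini-Hochberg adjustment over all 15106 genes, and calls were made under 0.05. The procedure was tested on simulated data. The 10 genes and 20 gene lists, and the rules used with them, were chosen with earlier results of these data known. All 10 genes are named. From each list, genes are named among the 3 called genes with the largest change in a comparison, and besides those the 8 genes most alike in profile. Foxa2, Gata6 and Nr3c1 are named only as members of their list. Alternatives were a pseudocount of 0.1, no filter, 3 other scalings, a fit of only the groups compared, the replicate number as a block, and leaving out each library.

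The treatment label of prednisone library 5 gives another replicate number than its title, which was used.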

Additional observations from a re-analysis of the deposited data

Results flagged for a closer look

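Among the 40 combinations of 1 of the 10 genes and a group of 5 libraries, 3 had a library far from the other 4, where chance gives about 1 in 20. The gap to the nearest other library, as a share of the range of the group, was 0.79 for Sftpa1 in model library 1, which had 877.8 FPKM against at most 738.5 in the other model libraries. It was 0.767 for Sftpb in prednisone library 1, which had 724.7 FPKM against at least 830.4 in the others. It was 0.81 for Lpcat1 in SMD library 1, which had 55.8 FPKM against at least 64.86 in the others.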

How the results depend on the processing

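Of the 10 genes, 0 were called in each of the 6 comparisons, and this held under the 27 alternatives with these exceptions. With only the groups compared, 1 gene (Lpcat1) was called for SMD against control, and with quantile scaling 1 (Napsa, adjusted p = 0.0468) for prednisone against control. Leaving out single libraries gave 0 to 1 calls for the model against control (Nkx2-1 without model library 4), 0 to 1 for SMD against the model (Nkx2-1 without control library 4), 0 to 3 for prednisone against control, all 3 without prednisone library 1, and 0 in the other comparisons. The direction of all 10 genes was kept in the model and under prednisone against control, that of 9 in both SMD comparisons with the model and control, and that of 3 for prednisone against the model. The values of the opposite sign were small and uncalled. For prednisone against the model they were 0.01 for Nkx2-1 and Lamp3, 0.00 for Sftpd and Sftpc and 0.07 for Slc34a2 with quantile scaling, and 0.05 for Sftpa1 and Slc34a2 and 0.00 for Sftpb with scaling to equal sums. With single libraries left out, values for prednisone against the model ran from -0.09 to 0.00 for Sftpa1 and from -0.15 to 0.11 for Slc34a2, those for SMD against the model from -0.02 to 0.09 for Lpcat1, and those for SMD against control from -0.00 to 0.10 for Sftpa1. The cause was not tested. With equal sums, the median of all genes moved from -0.004 to 0.120 for prednisone against control, and the median of the 10 genes from 0.21 to 0.34. The labels do not say whether the replicate numbers pair the libraries. Deviations from the group means correlated by -0.18 to 0.24 between libraries of 1 number and by -0.28 to 0.25 between others. Such correlations cannot show whether the libraries were paired. With the replicate block 0 of the 10 genes were called, and the 29 calls among all genes in the model against control became 0.

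The count of calls among all genes depended on the setting far more. For the model against control it was 29, 2 without a filter and 0 with each other scaling and with only the groups compared, and 0 to 111 with a library left out. For SMD against the model it was 325, and 122 without a filter, 101, 92 and 45 with median-of-ratios, quantile and equal-sum scaling, 53 with only the groups compared, and 75 to 527 with a library left out. For prednisone against the model the 1215 calls became 748, 699, 325, 27 and 710 in the same order, and 608 to 1695. For SMD against prednisone the 693 became 453 without a filter, 367 with equal sums, and 457 to 723. For SMD against control the 159 became 35, 55, and 19 to 217, and for prednisone against control the 540 became 259 without a filter, 256 with only the groups compared, and 229 to 662. The absence of overlap, examined under other settings after the data were seen, was as unsteady. It held for 5 to 8 genes for the model against control when a library was left out, against 2.84% to 6.15% of all genes. For SMD against control, 2 genes were free of overlap with median-of-ratios and 3 with quantile scaling instead of 1, against 2.32% and 2.73% of all genes. Without prednisone library 5, 2 genes were free of overlap for prednisone against the model, against 8.57% of all genes (6.68% with all libraries). Without SMD library 5 it was 2 for SMD against control, against 2.95% (2.09% with all libraries). Without prednisone library 1 it was 2 for prednisone against control. There the share of all genes also rose above the 2.44% found with all libraries. The counts of the 10 genes at an unadjusted p under 0.05 were also examined under other settings after the data were seen. For the comparisons other than the model against control, values are given beside each. For the model against control the 9 became 6 with quantile scaling (6.66% of all genes) and 8 without a filter (6.78%). With a library left out the count was 6 to 10. It was 6 without model library 1 (9.54% of all genes) and 10 without model library 5 (13.6%). Depth was unknown, so precision rests on the spread between libraries.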
